A study of Mus musculus with 4 samples.

Results

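Chil3, Chil4, Retnla, Retnlg, Itln1, Gm9765 and Ctse were examined in RNA-seq libraries of lung group 2 innate lymphoid cells (ILC2s). These 7 genes, of 22558 in the deposited count table, belong to 4 families: the chitinase-like proteins, the resistin-like molecules (RELM), the intelectins and the aspartic proteases. They were chosen by their family and by their difference between the ICAM-1 KO and WT libraries, so their values in that comparison are given as a description with no test. The WT libraries came from C57BL/6 mice and the ICAM-1 KO-labelled libraries from mice lacking ICAM-1 on the same background. All mice were 6 weeks old and had received 3 intranasal doses of 0.5 µg recombinant mouse IL-33, so no library came from an untreated mouse. Each group held 2 libraries, each made from ILC2s pooled from several mice. The cells had been sorted as lineage-negative, CD45+, ST2+, CD127+ cells, with CD11b, CD11c and Gr-1 among the lineage antibodies, a gate meant to remove macrophages, neutrophils and eosinophils. Selection on CD45 is also meant to leave out epithelial cells, and CD45R among the lineage antibodies is meant to leave out B cells. The KO allele is a targeted disruption of Icam1 present in all cells of the mouse, and by the study's methods the stock is a B6.129S4 one, so that it can carry DNA of a 129 strain.

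Libraries held between 24796147 and 28782470 estimated counts. Icam1 normalized counts were 85.2 and 83.3 in the WT libraries and 97.6 and 110 in the ICAM-1 KO-labelled libraries. The RNA of the targeted gene was therefore not lower in the latter, and the label, rather than the Icam1 level, defines the groups here. The study reports, from flow cytometry of lung ILC2s, that its ICAM-1 KO mice lack the ICAM-1 protein, which RNA counts do not measure. The ILC2 markers were present in all libraries, with summed normalized counts of 14 listed genes between 5884 and 6767. The WT libraries differed from each other by a median absolute log2 ratio of 0.18 over the 11711 genes tested, and the ICAM-1 KO-labelled libraries by 0.17. The median log2 fold change of all genes tested was 0.01.

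Chitinase-like proteins have the fold of chitin-cleaving enzymes but have lost the catalytic activity. Chil3 (Ym1) and Chil4 (Ym2) are secreted by alveolar macrophages and by airway epithelium, respectively, and both are widely used as markers of type 2 inflammation driven by IL-4 and IL-13. Resistin-like molecules are small, cysteine-rich secreted proteins, of which RELM-alpha (Retnla) is a marker of alternatively activated macrophages and RELM-gamma (Retnlg) is found in neutrophils and their precursors. Intelectins are secreted lectins that bind sugars on microbial surfaces and are made by goblet and Paneth cells. Cathepsin E (Ctse) is an aspartic protease of the endosomes of immune and epithelial cells.

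The genes lie in 4 places of the mm10 assembly. Chil3 (chr3:106147554-106167564, minus strand, 11 exons) and Chil4 (chr3:106201490-106219507, minus strand, 11 exons) are neighbours on chromosome 3. Retnla (chr16:48842551-48844461) and Retnlg (chr16:48872621-48874496) are neighbours on the plus strand of chromosome 16, with 4 exons each. Itln1 (chr1:171518122-171535294, minus strand, 8 exons) and Gm9765 (chr1:171515233-171516922, plus strand, 3 exons), an unprocessed pseudogene of the intelectin family, face each other on chromosome 1. Ctse (chr1:131638306-131675505, plus strand, 10 exons) lies elsewhere on that chromosome. None of the 7 overlaps another gene of the deposited count table. RefSeq promoters on GRCm38.p6, covering 250 bases before each gene's start and 50 after it, were matched for 5 of the 7, all but Ctse and Gm9765.

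The members come in pairs of related sequence, and the sequences are shown because reads of such pairs can be shared between them. The coding parts of Chil3 and Chil4 were 95.4% identical over 1194 bases, those of Retnla and Retnlg 83.5% over 351 bases, and the Gm9765 transcript matched Itln1 at 92.5% of 321 bases. Of all 50-base stretches of the annotated exons, 26.9% in Chil3 and 11% in Chil4 occur also in the other gene of the pair or in Gm6522, a pseudogene nearby. That share was 0.972% in Itln1, 4.04% in Gm9765 and 0 in Retnla, Retnlg and Ctse. The authors' counting divided shared reads between genes by estimation, so the split between Chil3 and Chil4 is uncertain to that extent. A stretch of the Itln1 transcript (exon 5, chr1:171531088-171531177, minus strand) and its match in Gm9765 (exon 2, chr1:171515600-171515689, plus strand) differ at the 3 bases in capitals.
Itln1: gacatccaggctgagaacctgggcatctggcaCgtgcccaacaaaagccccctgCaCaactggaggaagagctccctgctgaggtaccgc
Gm9765: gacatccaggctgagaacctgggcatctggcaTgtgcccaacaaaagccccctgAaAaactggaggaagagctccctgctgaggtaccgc

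The promoters of each pair also resemble each other upstream of the start. The following stretch of Chil3 (chr3:106167625-106167744, minus strand, 180 to 61 bases before the start) and Chil4 (chr3:106219569-106219687, minus strand, 208 to 90 bases before it) was identical at 109 of 120 aligned positions, with the differing bases in capitals.
Chil3: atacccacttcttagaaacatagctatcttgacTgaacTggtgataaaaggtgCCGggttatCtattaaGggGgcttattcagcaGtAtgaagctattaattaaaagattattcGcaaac
Chil4: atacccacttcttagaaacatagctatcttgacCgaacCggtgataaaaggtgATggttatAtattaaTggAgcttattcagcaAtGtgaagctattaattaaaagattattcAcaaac
The corresponding stretch of Retnla (chr16:48842429-48842535, plus strand, 180 to 74 bases before the start) and Retnlg (chr16:48872501-48872607, plus strand, 107 to 1 bases before it) was identical at 85 of 108 aligned positions.
Retnla: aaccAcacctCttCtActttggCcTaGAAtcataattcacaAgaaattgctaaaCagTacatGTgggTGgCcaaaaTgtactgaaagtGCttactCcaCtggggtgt
Retnlg: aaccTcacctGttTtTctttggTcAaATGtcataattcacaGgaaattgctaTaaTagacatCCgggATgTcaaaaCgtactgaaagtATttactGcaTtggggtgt
Next, 2 palindromic letter patterns bound by STAT factors, which read the same on both strands, were searched in the 250 bases before each start. TTC and GAA separated by any 4 bases, the pattern to which STAT6 binds preferentially, occurred in Retnla (TTCACAAGAA, 145 to 136 bases before the start) and Retnlg (TTCACAGGAA, 72 to 63 bases before it), and in 5.85% of 32851 promoters. TTC and GAA separated by any 3 bases (TTCNNNGAA) occurred in Chil3 (172 to 164 bases before the start) and Chil4 (200 to 192), with the same letters, TTCTTAGAA, in both, and in 7.02% of promoters. Neither was present in the Itln1 window.

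Of the 7 genes, 3 were higher in both ICAM-1 KO-labelled libraries than in both WT libraries (Chil3, Itln1 and Gm9765), 1 was lower (Ctse) and 3 overlapped between the groups (Chil4, Retnla and Retnlg). Groups that did not overlap were found for 59.5% of all genes tested, and since the 7 genes were selected on this contrast nothing is read from their count.

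Chil3 was higher in the ICAM-1 KO-labelled libraries. Its normalized counts, which are the authors' upper-quartile scaled counts, were 211 and 423 in the WT libraries and 1052 and 1423 in the ICAM-1 KO-labelled libraries. Both of the latter stood above both WT libraries, which themselves differed by more than those of most genes (95.8% of genes had a smaller ratio between the WT libraries). The means were 317 ± 150 and 1238 ± 263 (SD, n = 2 each), a log2 fold change of 1.99, and the 4 pairs of one library from each group gave folds from 2.49 to 6.75. The log2 fold change was between 1.58 and 2.58 when any 1 library was left out. In these bulk libraries, more cells of a type and more RNA per cell cannot be told apart.

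Chil4 did not follow Chil3. Its normalized counts were 73.1 and 9.003 in the WT libraries and 16.8 and 104 in the ICAM-1 KO-labelled libraries. WT replicate 1 and ICAM-1 KO replicate 2 were high and the other 2 libraries low, so the groups overlapped. The libraries differed 8.11-fold within WT and 6.20-fold within the ICAM-1 KO label, more than for 99.5% and 99.6% of genes tested, respectively. The means of 41.0 ± 45.3 and 60.7 ± 62.0 (SD, n = 2) gave a log2 fold change of 0.61, which was -1.27 without ICAM-1 KO replicate 2 and 2.80 without WT replicate 1. A difference between the groups in Chil4 was not detectable beyond the spread between libraries.

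**Figure D1:**
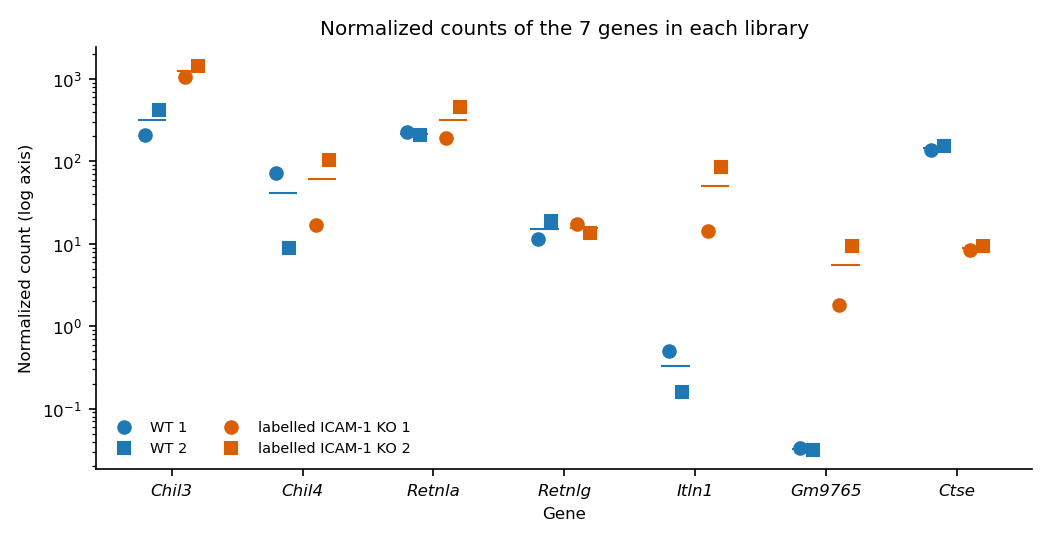
Normalized counts of the 7 genes in each of the 4 libraries, on a log10 axis; points are libraries and short bars group means. Chil3 and Itln1 are higher and Ctse lower in both ICAM-1 KO-labelled libraries, whereas Chil4, Retnla and Retnlg overlap; Gm9765 had 0 counts in WT.

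Other members of the chitinase-like family, which were not among the 7 genes, were tested. The whole family list was drawn up with earlier results of these data known. A gene was called when the adjusted p of edgeR's quasi-likelihood test was under 0.05 and the change at least 2-fold, which 4.94% of all genes met in the upward and 0.538% in the downward direction. Of 8 listed chitinase and chitinase-like genes, 4 were tested, and 2 of them rose. Chia1, the acidic mammalian chitinase, which does cleave chitin, had normalized counts of 1.88 and 1.74 in WT and 16.7 and 31.8 under the ICAM-1 KO label (log2 fold change 3.80, SE 0.44, adjusted p = 0.00148, edgeR). Chil1, which encodes the non-enzymatic protein BRP-39, had 3.00 and 6.87 against 37.9 and 74.9 (log2 fold change 3.55, SE 0.41, adjusted p = 0.00148, edgeR). In both genes the groups did not overlap. Chid1 (log2 fold change -0.11) and Ctbs (-0.20), which encodes the lysosomal chitobiase, did not pass the test. Chil5 was near 0 and Chil6 had no count in any library. Ovgp1, also below the filter on low counts, went the other way, with 1.48 and 0.875 in WT against 0.285 and 0.403. Chit1 was not among the counted genes.

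Many macrophage markers, though not all, were higher along with Chil3. Of 14 listed alveolar macrophage genes, 12 were tested and 8 rose, with none called lower. With no filter on low counts 3 of the 12 were called, as without WT replicate 1, and 5 without ICAM-1 KO replicate 2. Their summed normalized count was 283 and 315 in WT and 303 and 336 under the ICAM-1 KO label. That sum was dominated by Pparg, which ILC2s also express and which fell by less than 2-fold (228 and 221 against 144 and 142). Without Pparg it was 54.8 and 94.1 in WT and 160 and 194 under the ICAM-1 KO label. Ear2, the next most abundant, had 13.9, 24.5, 33.7 and 34.4. Ear1 went the other way, with 4.55 and 7.73 in WT against 1.80 and 3.14, and did not pass the test (log2 fold change -1.29, adjusted p = 0.0854, edgeR). Siglecf, a defining surface marker of alveolar macrophages, had 1.91, 1.04, 1.63 and 3.54 and did not pass the filter on low counts, and no listed gene was at 3 counts or fewer in all libraries. Of the 12 tested genes, 7 had the same order of libraries within each group as Chil3, with WT replicate 2 above replicate 1 and ICAM-1 KO replicate 2 above replicate 1 (58.3%, against 25.9% of all genes tested), as had 2 of 13 genes of other macrophages and monocytes (15.4%) and 4 of 5 dendritic cell genes (80%). Ctse, which was lower under the ICAM-1 KO label, had the same order of libraries within each group, so these matches are not particular to Chil3. Of 13 tested genes of other macrophages and monocytes, 6 rose and none fell (4 rose on leaving out either of the WT libraries), with sums of 559 and 554 against 935 and 1149. The most abundant of these were Lyz2, encoding lysozyme (169, 172, 344 and 577), and Ccr2 (254, 236, 323 and 279). Such rises were not particular to macrophages: 7 of 10 tested neutrophil, 6 of 9 alveolar epithelial and 3 of 8 B cell genes were called higher. With no filter on low counts these were 5, 3 and 0, respectively. Of the airway epithelial genes 1 of 9 was called higher, and of the ILC2 genes 0 of 13. The part of macrophage RNA in the Chil3 difference was not tested.

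The summed count of airway epithelial markers was high in the libraries in which Chil4 was high, though not every marker followed. The summed normalized count of 11 listed airway epithelial genes was 421 and 199 in the WT libraries and 194 and 680 in those labelled ICAM-1 KO, highest in WT replicate 1 and ICAM-1 KO replicate 2 as for Chil4. Scgb1a1, the secretoglobin of club cells, made up most of that sum in each library, with 338, 142, 123 and 510. Reg3g, an antimicrobial lectin, had 16.4, 10.2, 2.95 and 46.0. Some did not follow Chil4. Bpifa1 had 0.726, 0.0317, 25.3 and 11.6, highest in ICAM-1 KO replicate 1. Cdh1, with 7.69, 7.79, 9.58 and 12.7, and Epcam, with 10.5, 11.3, 14.1 and 17.5, were lowest in WT replicate 1. Of the 9 airway genes tested, 6 had the library order of Chil4 within both groups (66.7%, against 25.3% of all genes tested), as had 5 of 7 goblet genes. Retnla, Itln1 and Gm9765 had that order as well, so these matches are not particular to Chil4. Clca1, a goblet cell product induced by IL-13, had 61.5, 42.3, 2.15 and 58.7 and was lowest in ICAM-1 KO replicate 1, where Chil4 was not lowest. Of the airway genes 1 was called, Bpifa1, whose adjusted p was 0.0866 with DESeq2, while 6 were called higher without ICAM-1 KO replicate 1, and of the goblet genes none, and Tff1, at -0.86 on the log2 scale (adjusted p = 0.0396, edgeR), was the one goblet gene under the p threshold alone. At an unadjusted p under 0.05 the goblet list held 2 genes, Tff1 and Slc26a4. The part of airway RNA in the Chil4 levels was not tested.

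**Figure D2:**
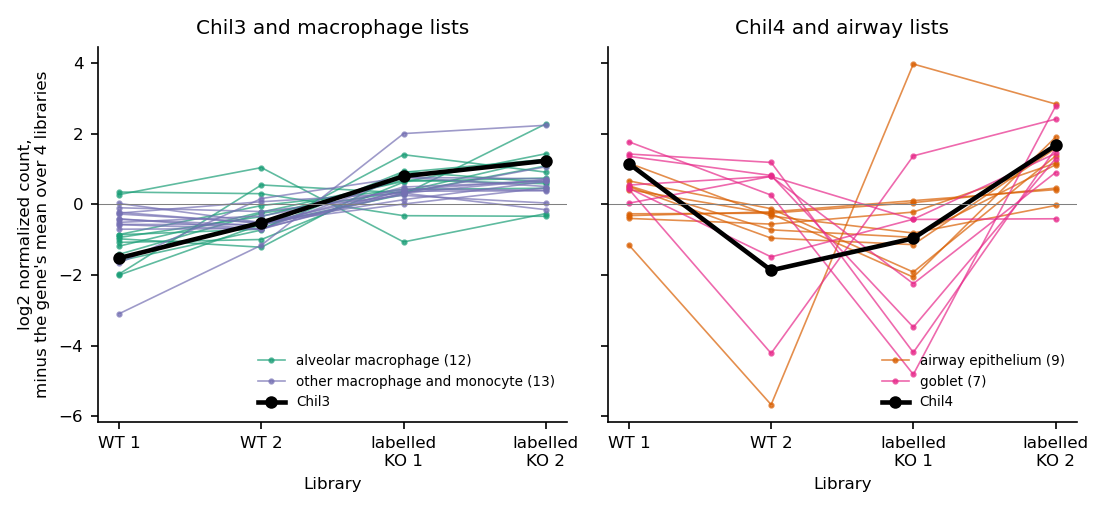
Log2 normalized counts minus each gene's mean over the 4 libraries, for Chil3 with the tested macrophage list genes (left) and Chil4 with the tested airway and goblet genes (right); each line is a gene and n of each list is in the key. Chil3 is higher in both ICAM-1 KO-labelled libraries, as are most macrophage genes, while Chil4 and most airway genes are high in WT replicate 1 and ICAM-1 KO replicate 2.

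Retnla was the most abundant of the members per kilobase in WT. Its normalized counts were 225 and 209 in the WT libraries, which lay close together, and 190 and 452 in the ICAM-1 KO-labelled libraries. ICAM-1 KO replicate 1 was thus below both WT libraries and replicate 2 above them. The means were 217 ± 11.5 and 321 ± 185 (SD, n = 2), and the log2 fold change of 0.60 became -0.17 without ICAM-1 KO replicate 2. The ICAM-1 KO-labelled libraries differed 2.37-fold in Retnla, more than for 98.6% of genes, whereas only 32.5% of genes had a smaller ratio between the WT libraries.

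Retnlg differed between the groups by less than between the libraries of one group. Its normalized counts were 11.5 and 19.1 in WT and 17.3 and 13.3 under the ICAM-1 KO label, with means of 15.3 ± 5.40 and 15.3 ± 2.78 (SD, n = 2). The log2 fold change was 0.02 and ranged from -0.30 to 0.44 on leaving out 1 library. Of 10 tested neutrophil genes 7 rose, and 5 with no filter on low counts. S100a9, a subunit of calprotectin, was at 24.99 and 22.6 in WT and 65.7 and 50.8 under the ICAM-1 KO label. Mpo, made in neutrophil precursors, had 80.3, 21.9, 7.85 and 24.3 and did not pass the test. Neither did Elane, with 14.4, 4.43, 0.694 and 5.42 (log2 fold change -1.55). Retn and Retnlb, the other mouse resistin genes, did not pass the filter on low counts.

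Itln1 had almost no reads in WT. Its estimated counts were 14 and 4 in the WT libraries and 416 and 2688 in the ICAM-1 KO-labelled libraries, or 0.495, 0.158, 14.5 and 85.7 normalized. Both ICAM-1 KO-labelled libraries stood above both WT libraries, with folds of 29.2 to 541 over the 4 pairs, but they differed from each other 5.93-fold, more than for 99.6% of genes. The means were 0.327 ± 0.238 and 50.1 ± 50.4 (SD, n = 2), a log2 fold change of 7.45 that was 5.63 without ICAM-1 KO replicate 2.

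Gm9765 followed Itln1. It had 0 counts in both WT libraries and 50 and 292 under the ICAM-1 KO label, 1.78 and 9.32 normalized, a 5.22-fold difference between the latter. Set against a floor of 3 counts in each WT library, it was at least 56.9-fold higher, and at least 17.7-fold in the lowest of the 4 pairs. No 75-base stretch of either annotated transcript occurred in the other, so reads that long from these sequences would tell them apart. Sequences of other strains were not compared, so this does not show which gene copies the reads came from. The intelectin cluster is known to differ in gene number between inbred mouse strains, and no genotype at the cluster was measured here. The goblet list summed to 119 and 121 in WT, where Itln1 was at 0.495 and 0.158. Under the ICAM-1 KO label the list summed to 37.2 and 123, where Itln1 was at 14.5 and 85.7. Over the 4 libraries the goblet sum thus did not follow Itln1. Alveolar epithelial genes were higher in the ICAM-1 KO-labelled libraries, as Itln1 was: 6 of 9 tested rose and none fell, with sums of 123 and 112 against 543 and 1034. With no filter on low counts 3 of the 9 were called, and 4 without WT replicate 2. The most abundant, the surfactant genes Sftpc and Sftpa1, had 24.2, 0.570, 253 and 537, and 31.8, 23.1, 112 and 220, and the adjusted p of Sftpc was 0.0524 with no filter (edgeR). The part of epithelial RNA in the Itln1 and Gm9765 difference was not tested.

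Ctse was the one member that was lower. Its normalized counts were 138 and 154 in the WT libraries and 8.30 and 9.33 in the ICAM-1 KO-labelled libraries. The libraries of each label lay close together, as close as those of a typical gene (44.8% of genes had a smaller ratio between the WT libraries and 51.0% between those labelled ICAM-1 KO), and the groups were far apart. The means of 146 ± 11.2 and 8.82 ± 0.735 (SD, n = 2) were 16.5-fold apart, the 4 pairs gave 14.8 to 18.5-fold, and the log2 fold change of -4.02 stayed between -4.12 and -3.93 on leaving out any 1 library. Ctse stood at the 89.1 percentile of the levels of all genes tested in WT and at the 20.2 percentile under the ICAM-1 KO label. The eosinophil granule genes Prg2 and Epx were also lower, with Prg2 at 52.3 and 33.0 against 1.18 and 3.79, and Epx at 33.9 and 23.4 in WT and at 0 counts in the ICAM-1 KO-labelled libraries. The 5 tested eosinophil genes did not move one way, with 2 called higher (Ccr3 and Il5ra) and 2 lower. With no filter on low counts, as without WT replicate 1, 0 were called higher and 2 lower. Prg3 and Ear6, further granule genes below the filter, had 1.75 and 2.12 against 0.208 and 0.0637, and 2.67 and 3.23 against 0.278 and 0.255. The part of eosinophil RNA in the Ctse difference was not tested.

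Among the other aspartic proteases and cathepsins tested, 3 genes rose and 1 fell. Of 4 other aspartic proteases tested, Napsa, the napsin of alveolar type II cells and macrophages, rose (32.6 and 32.8 against 64.2 and 69.0, log2 fold change 1.05, adjusted p = 0.00155, edgeR). Bace2 fell (37.5 and 34.1 against 18.8 and 16.0, log2 fold change -1.02, adjusted p = 0.00705, edgeR), just past 2-fold and under it without WT replicate 1 or ICAM-1 KO replicate 2. Ctsd, the abundant lysosomal cathepsin D, had 398, 412, 426 and 454 and did not pass the test (log2 fold change 0.15). Of 12 other cathepsins, 2 rose. Ctsh, an aminopeptidase of lysosomes, had 39.9 and 32.1 against 74.3 and 85.6 (log2 fold change 1.18, adjusted p = 0.00192, edgeR). Ctsk had 0.066 and 2.98 against 6.59 and 9.59, and its adjusted p of 0.0440 (edgeR) was 0.149 with no filter on low counts and 0.460 with DESeq2. Without the 2-fold minimum, which 8.8% of all genes passed upward and 4.97% downward, Ctss and Ctsc also rose, by 0.87 and 0.53 on the log2 scale. With no filter on low counts their adjusted p values were 0.0853 and 0.0983, respectively (edgeR). Over the whole family list, 5 of 20 tested genes were called higher and 1 lower, with a median log2 fold change of 0.34 against 0.01 for all genes.

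**Figure D3:**
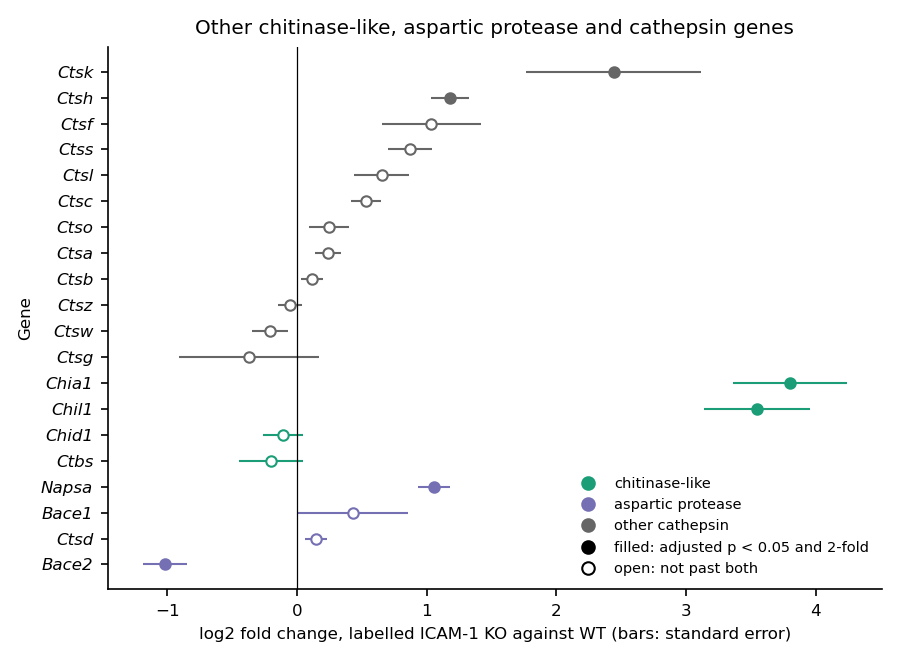
Log2 fold change of the tested family genes, ICAM-1 KO-labelled libraries over WT, with bars of 1 standard error; filled points were called (adjusted p under 0.05 and at least 2-fold). Chia1 and Chil1 rose by more than 3.5 log2 units and Bace2 fell, while Ctsd, Ctsb and Ctsz lay near 0.

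Per kilobase of exon, the order of the members changed between the labels. In WT the normalized count per kilobase was highest for Retnla (362 ± 19.3), then Chil3 (194 ± 91.8), Ctse (45.9 ± 3.53), Retnlg (25.8 ± 9.11), Chil4 (14.6 ± 16.1) and Itln1 (0.286), with Gm9765 at 0 counts. Under the ICAM-1 KO label it was highest for Chil3 (758 ± 161), then Retnla (536 ± 308), Itln1 (43.9 ± 44.1), Retnlg (25.8 ± 4.69), Chil4 (21.5 ± 22.0), Gm9765 (17.3 ± 16.6) and Ctse (2.78 ± 0.232). In WT, Chil4 did not differ beyond its spread from Retnlg above it or Itln1 below it. Under the ICAM-1 KO label, Retnla and Itln1 were the only neighbours in the order that were further apart than their spread. Ctse moved from the third place to the last and Itln1 from the sixth to the third.

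A list of 28 genes of type 2 responses, chosen with earlier results of these data known, showed which other genes of that programme moved. Of 22 tested, 5 rose and none was called lower. The 4 most abundant that rose were Tgm2, a transglutaminase (41.4 and 59.1 against 94.8 and 108), Clec7a, the receptor Dectin-1 (18.5 and 20.5 against 48.6 and 51.7), Mrc1, the mannose receptor (7.33 and 8.17 against 25.4 and 20.5), and the chemokine Ccl22 (4.95 and 4.43 against 14.8 and 17.2). Their adjusted p values were 0.00584, 0.00117, 0.00372 and 0.00418, respectively (edgeR), and that of Tgm2 was 0.0512 with no filter on low counts. Without the 2-fold minimum 9 rose and 3 fell, the latter being Pparg, Cish, a feedback inhibitor of cytokine signalling, and Arg1, arginase 1. Arg1, often paired with Chil3 and Retnla as a macrophage marker and also abundant in ILC2s, had 1641 and 1524 in WT and 1061 and 925 under the ICAM-1 KO label (log2 fold change -0.65, adjusted p = 0.00371, edgeR). Stat6, which carries the signal of IL-4 and IL-13, did not pass the test (log2 fold change 0.01), and the receptor subunit Il4ra differed by 0.38 on the log2 scale (adjusted p = 0.0328, edgeR), with an adjusted p of 0.117 with no filter on low counts and 0.0600 with filterByExpr. The genes named without the 2-fold minimum were picked after their values were seen.

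The genes around the members were tested as well. Of 24 tested neighbours, 4 were called higher and none lower. Chia1, already counted on the family list above, lies about 16 kb from Chil3 on the side of lower coordinates. On the other side of the pair, 2010016I18Rik had a log2 fold change of 0.68 (adjusted p = 0.191, edgeR). Trat1, a T cell receptor adaptor 70.6 kb from Retnla, rose by 1.80 on the log2 scale (adjusted p = 0.00827, edgeR), and Dzip3, 49.7 kb beyond Retnlg, did not pass the test. Rab7b, a small GTPase about 13 kb from Ctse, rose by 2.19 while Ctse was lower (adjusted p = 0.0325, edgeR), and Fam72a on the other side of Ctse did not pass. Alyref2 and Cd244a, the tested genes nearest to Itln1 and Gm9765, did not pass the test (log2 fold changes 0.97 and 0.74). Besides Chia1, Trat1 and Rab7b, the gene called higher was Slamf7, a receptor of the SLAM family (1.32, adjusted p = 0.0486, edgeR), picked after its value was seen. With no filter on low counts the adjusted p of Rab7b was 0.107, that of Slamf7 0.137 and that of Trat1 0.0510 (edgeR).

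**Figure D4:**
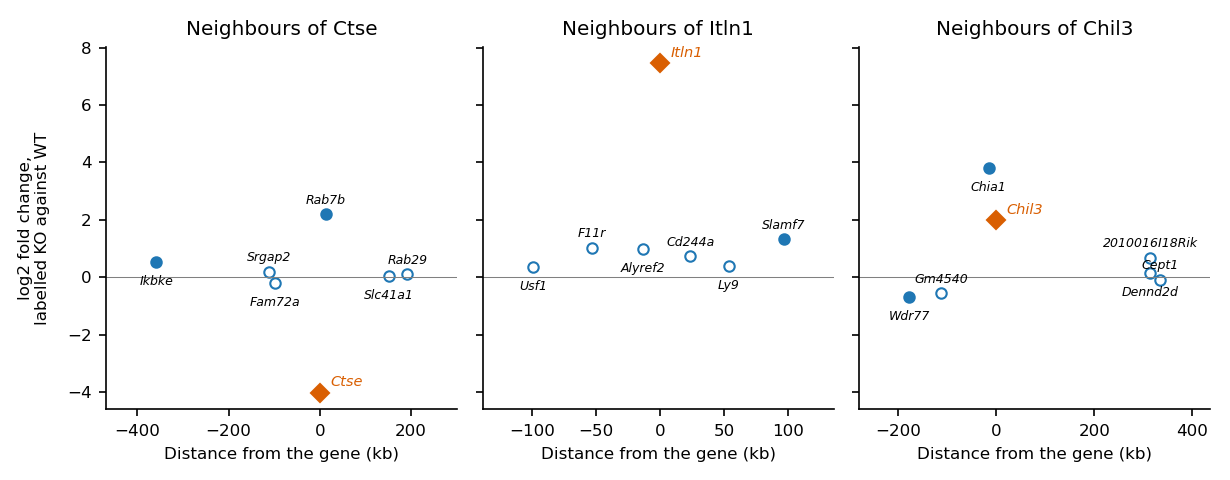
Log2 fold change (ICAM-1 KO-labelled libraries against WT) of Ctse, Itln1 and Chil3 (diamonds) and of their nearest tested genes (circles) against distance in kilobases; filled circles had an adjusted p under 0.05. Rab7b and Chia1, the closest filled circles to Ctse and Chil3, are higher at 2.19 and 3.80, and the 6 neighbours of Itln1 all lie above 0, between 0.36 and 1.32.

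Across all genes tested, those with the profile nearest to each member were found by the Euclidean distance between centred log2 normalized counts of the 4 libraries. For Chil3 these were Ackr2, a decoy chemokine receptor, and Selp, P-selectin (distances 0.131 and 0.135). For Chil4 they were Postn, encoding periostin, and the secretoglobin Scgb3a1 (0.987 and 1.14), both on the lists above. Retnla was nearest to Pex26 and Wfdc2 (0.168 and 0.174), and Retnlg to Mkks and Trio (0.0378 and 0.0402). For Itln1 the nearest non-members were Ighv1-36 and Lamp3 (0.863 and 1.96), and for Gm9765 Ighv1-36 and Gm11942 (1.34 and 2.04). Itln1 and Gm9765 lay 1.13 apart. Ctse was nearest to Dscaml1 and the immunoglobulin segment Igkv12-89 (0.634 and 0.747). Chil3 and Chil4, in spite of their sequence, were 3.50 apart, and Retnla and Retnlg 1.35. With 4 libraries these distances are a description.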

How the data were processed

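RNA of sorted lung ILC2s was measured in 2 WT and 2 ICAM-1 KO libraries. Base calling, alignment to mm10 and counting were done by the authors, and the submitters' notes name CASAVA 1.8.2, STAR and Partek. The STAR version differs between those notes and the study's methods and is left out. Strand use in counting is not given in the sources used here. The authors deposited estimated counts per gene, in which reads that match several genes are divided among them. They also deposited normalized counts, a signal in which each count, plus 1, is multiplied by 1 upper-quartile factor per library.

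Estimated counts were rounded and tested with edgeR 4.0.16 (limma 3.58.1, R 4.3.3), using upper-quartile factors and the quasi-likelihood test with Benjamini-Hochberg adjustment, as tested on simulated data. Of 22558 genes, 11711 entered, those whose normalized count averaged 1 or more and summed to 10 or more, including all 7 members. Genes at an adjusted p under 0.05 and at least 2-fold were called. DESeq2 1.42.0 was an alternative. Replicates were pools of mice, and p values measure only the spread between these libraries.

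The members and lists were chosen with earlier results of these data known. The genes named were the members, Icam1, the family genes called (otherwise the 3 most abundant), the 4 most abundant called genes of the type 2 and goblet lists, the 2 most abundant of each marker list, the nearest neighbours and the 2 genes of nearest profile. Others were picked after their values were seen. Promoter sequences were from RefSeq and transcripts from GENCODE M21.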

Additional observations from a re-analysis of the deposited data

How the results depend on the processing

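With 2 libraries a group, single libraries decided several values. The log2 fold changes on leaving out 1 library ranged from 1.58 to 2.58 for Chil3, -1.27 to 2.80 for Chil4, -0.17 to 1.10 for Retnla, -0.30 to 0.44 for Retnlg, 5.63 to 8.62 for Itln1, -4.12 to -3.93 for Ctse and 4.17 to 6.58 for the lower bound of Gm9765. Other scalings (TMM, DESeq2) left the log2 fold changes of the 6 members other than Gm9765 within their replicate spread; the bound of Gm9765 was computed without them. With the length of the longest transcript, Chil4 took place 4 and Retnlg place 5 per kilobase in both groups. With no filter on low counts, 273 genes were called higher and 39 lower in place of 578 and 63, and 3 type 2, 18 marker and 1 neighbour gene were called higher in place of 5, 35 and 4, and 5 markers lower in place of 3. With filterByExpr, 2 neighbours were higher and 5 markers lower. With no fold threshold, 1030 genes were higher and 582 lower, 9 type 2 genes higher and 3 lower, and 1 goblet gene, 6 markers and 1 neighbour lower. Leaving out 1 library gave 338 to 596 genes called higher, 3 to 6 type 2 genes, 22 to 41 markers, 2 to 4 neighbours and 0 to 1 goblet gene higher, and 0 to 1 family, 0 to 4 goblet and 3 to 7 marker genes lower. The lowest count, 338, was without WT replicate 1, and the 4 goblet genes were called without ICAM-1 KO replicate 2; a lone library was assumed to vary like the other group. The cause was not tested. The replicate numbers did not pair the libraries (correlation of deviations -0.07 over 11711 genes). With the replicate number as a block, 1 goblet gene was called higher and no other count moved by over 1.5 times.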

Other observations

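Other lists showed the make-up of the libraries beside these 7 genes. Of 8 B cell genes tested 3 rose and none fell (none was called with no filter on low counts), with sums of 249 and 392 in WT and 601 and 715 in the ICAM-1 KO-labelled libraries. Jchain, the joining chain of secreted antibodies, had 74.2, 234, 266 and 442, and Ms4a1, the antigen CD20, 34.9, 41.6, 88.4 and 63.1. Of 5 dendritic cell genes tested 2 rose (1 with no filter on low counts or without any of 3 single libraries, ICAM-1 KO replicate 1 being the exception), with Ccr7 at 149, 199, 184 and 190 and Zbtb46 at 15.5, 16.5, 32.1 and 32.9. Neither haemoglobin gene that was tested passed, with Hba-a2 at 23.1, 16.5, 20.5 and 23.9 and Hba-a1 at 16.7, 14.9, 20.8 and 16.5. Of 13 ILC2 genes tested 1 was called lower and none higher. The called gene was Il13, at 31.6 and 35.2 in WT against 11.1 and 12.9 (log2 fold change -1.45, adjusted p = 0.00247, edgeR). The most abundant were Il5, at 1039 and 1252 in WT and 668 and 656 in the ICAM-1 KO-labelled libraries, and Ptprc, encoding CD45, at 706, 701, 920 and 896. Il5 fell by less than 2-fold (log2 fold change -0.76).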
